A study of Mus musculus with 33 samples.

Results

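The respiratory chain genes of mouse colon regulatory T cells (Treg) were compared between the 2 genomes that encode them. A protein-coding gene was taken when its symbol began with mt-, with Ndufa, Ndufb, Ndufc, Ndufs or Ndufv, with Sdha, Sdhb, Sdhc or Sdhd, or with Uqcr, Cox4 to Cox8 or Atp5, and when it had at least 10 counts in at least 4 Treg libraries. Of 53465 genes in the count table, 110 matched by name and 100 passed the count rule. Of these, 7 are encoded in the mitochondrial genome and 93 in the nucleus. The nuclear-encoded members comprise 37 genes of complex I, 4 of complex II, 8 of complex III, 15 of complex IV, 17 of complex V (ATP synthase) and 12 assembly factors, whose symbols begin with the same letters. Complexes were assigned from the symbol alone and not from where the protein is found, so Ndufa4, for example, counts under complex I.

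Oxidative phosphorylation moves electrons from NADH and succinate through complexes I to IV and uses the resulting proton gradient to make ATP in complex V. Complexes I, III, IV and V each combine subunits from both genomes, whereas complex II is made from nuclear genes alone. Mitochondrial genes are transcribed inside the organelle by their own polymerase, as long transcripts that are then cut into single RNAs, while the nuclear subunits are transcribed one by one and imported as proteins. Treg are known for a larger reliance on oxidative metabolism than conventional effector T cells.

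The study asked how the receptors of the cytokines TSLP and IL-33 mark Treg in colorectal cancer. All 8 animals were labelled with the genotype Foxp3-yfp B6, while the husbandry text shared by the samples speaks mainly of BALB/c mice, so the background rests on the genotype label alone. Mice 1 to 4 were naive, and mice 5 to 8 carried colitis-associated colon cancer. The cancer mice had received azoxymethane (AOM, a colon carcinogen) once at 10 mg/kg and then dextran sulfate sodium (DSS, which injures the colon lining) in the water for 7 days per cycle (2 cycles are stated for BALB/c and 3 for C57BL/6 mice, and none for these animals by name), and were taken 2 weeks after the last DSS. The naive mice carried the same genotype and no treatment is given for them, so tumour, inflammation and repair after AOM and DSS cannot be told apart. The labels state an age of 7 to 12 weeks for purchased mice. From each mouse 200 CD45+TCR+CD4+Foxp3+ cells were sorted by the TSLP receptor (TSLPR, gene Crlf2) and the IL-33 receptor (ST2, gene Il1rl1) into 4 gates, double-negative (written TSLPR-ST2-), ST2 single-positive (TSLPR-ST2+), TSLPR single-positive (TSLPR+ST2-) and double-positive (TSLPR+ST2+), giving 32 Treg libraries in 8 groups of 4. A single library of CD44low Foxp3-negative T cells from a naive animal is given as a value only. In bulk RNA from a gate, a change in the mix of cells and a change in RNA per cell cannot be told apart.

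Library totals ranged from 4038718 to 8839946 counts (median 6433005). Foxp3 was present in every Treg library at 59.9 to 222 CPM (library-size-scaled counts, with edgeR's TMM method), and Il1rl1 separated ST2+ libraries (95.6 to 309 CPM) from ST2- libraries (0 to 11 CPM). Crlf2 ran from 25.2 to 57.2 CPM in TSLPR+ and from 8.76 to 30.5 CPM in TSLPR- libraries, so the ranges met. A pair of libraries stood apart. The cancer TSLPR+ST2+ library of mouse 7 had a summed level of 14141.3 CPM over 10 epithelial markers, 9 of them with a count, against 31.1 to 529.5 CPM in every other Treg library. Car1 reached 9073.0 CPM in it. The naive TSLPR-ST2+ library of mouse 3 was low for most mitochondrial-encoded members. Counts of members called are given with and without the former library, and the TSLPR-ST2+ values with and without mouse 3.

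The mitochondrial genome holds 13 protein-coding genes, and the table treated them unequally. Over the 32 Treg libraries, mt-Co1 (the catalytic subunit of complex IV) had 695775 counts, mt-Cytb (cytochrome b of complex III) 481112, and the complex I subunits mt-Nd1 246226, mt-Nd5 189053, mt-Nd4 117245, mt-Nd2 105429 and mt-Nd6 23219. The other 6 fell under the count rule. There were 7 counts for mt-Co2, 5 for mt-Co3, 4 each for mt-Nd3 and mt-Atp6, and none for mt-Nd4l and mt-Atp8. Reads were 58 bases long, and the share of a gene's 58-base windows that also occur in a transcript of another gene was 100% for mt-Co2, 99.9% for mt-Co3, 99.5% for mt-Atp6, 98.8% for mt-Nd4l and 97.9% for mt-Nd3. It was 62.0% for mt-Nd4, 47.4% for mt-Co1, 7.34% for mt-Nd2, 4.98% for mt-Nd5 and 0% for mt-Nd1, mt-Nd6, mt-Cytb and mt-Atp8. The shared windows lie mainly in unprocessed pseudogenes, nuclear copies of mitochondrial DNA, on chromosomes 1 and 2. These copies on chromosomes 1 and 2 themselves had 25 to 2411 counts each. The sources used here do not say how reads with several matches were handled, so the link between sharing and missing counts was not tested, and the part of complexes IV and V encoded by mt-Co2, mt-Co3, mt-Atp6 and mt-Atp8 was not measured.

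The contrast can be seen in 3 windows of read length from the plus strand of the mitochondrial genome (GRCm38, read from GENCODE M21 transcripts), each from the exon of its intronless gene. The mt-Co2 window is chrM:7326-7383 and occurs also in the pseudogenes Gm13341 and Gm28661. The mt-Co3 window is chrM:8970-9027 and occurs also in Gm28437. The mt-Cytb window is chrM:14688-14745 and occurs in no other annotated transcript.
mt-Co2: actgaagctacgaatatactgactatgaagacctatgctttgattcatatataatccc
mt-Co3: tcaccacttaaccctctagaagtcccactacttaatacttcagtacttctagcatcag
mt-Cytb: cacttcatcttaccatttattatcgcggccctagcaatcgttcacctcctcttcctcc

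Nuclear-encoded members have promoters of their own. NRF1, ETS-family factors with GABP, and YY1 are the factors best known for binding them. RefSeq promoters (GRCm38.p6, 250 bases before to 50 after the start site) were matched for 76 of the 93. On either strand, the NRF1 core GCATGCGC was in 12 of them (15.8%, against 3.76% of 16504 protein-coding promoters), the ETS core CCGGAAG in 20 (26.3% against 12.3%) and the YY1 core AAGATGGC in 9 (11.8% against 3.29%). At least 1 of the 3 was in 46.1% of member promoters and in 17.8% of protein-coding promoters. A match is a description of these letters and not a site of binding. The stretches shown are from members whose levels are described with the comparisons that follow, with the motif in capitals (in CTTCCGG the ETS core is on the opposite strand). They are Sdhb at chr4:140961181-140961260 on the plus strand, and on the minus strand Atp5k at chr5:108434404-108434483, Uqcrh at chr4:116075071-116075116, Cox6b1 at chr7:30626115-30626178 and Sdhd at chr9:50603853-50603931.
Sdhb: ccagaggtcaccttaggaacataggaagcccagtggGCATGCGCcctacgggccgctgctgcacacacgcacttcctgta
Atp5k: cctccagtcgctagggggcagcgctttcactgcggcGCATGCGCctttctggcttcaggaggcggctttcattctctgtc
Uqcrh: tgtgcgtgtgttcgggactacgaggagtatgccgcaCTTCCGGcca
Cox6b1: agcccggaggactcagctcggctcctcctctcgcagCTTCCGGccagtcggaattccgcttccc
Sdhd: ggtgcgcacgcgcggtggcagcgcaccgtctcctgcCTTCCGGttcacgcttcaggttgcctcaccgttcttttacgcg

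Levels per length were taken as mean CPM over the 32 libraries per kilobase of merged exon. Merged exon length counts the bases of all annotated exons of a gene and can exceed the length of a transcript. On this scale 5 mitochondrial-encoded members stood above every nuclear-encoded one, 3 of them by a wide margin. The order of members near the highest nuclear-encoded one rests on this length, which was 4237 bases for Atp5b and 3135 for Atp5a1. mt-Co1 was at 2340.1, mt-Cytb at 2148.7 and mt-Nd1 at 1321.8. mt-Nd5 at 528 and mt-Nd2 at 520 lay just above the highest nuclear-encoded subunit, and mt-Nd4 at 436 and mt-Nd6, on the opposite strand of the genome, at 230 lay below it. The highest nuclear-encoded member of each complex per kilobase was Cox6a1 in complex IV (511, with Cox8a at 509 next), Atp5b, the catalytic beta subunit of ATP synthase (402), Ndufa1 in complex I (391), Uqcr10 in complex III (286) and the membrane anchor Sdhd in complex II (172). The assembly factor Ndufaf8 was at 70.1. Within the counts of the 7 mitochondrial-encoded members, mt-Co1 took a median of 37.3% (31.9% to 48.9% over libraries), mt-Cytb 26.3%, mt-Nd1 13.2%, mt-Nd5 10.1%, mt-Nd4 6.3%, mt-Nd2 5.71% and mt-Nd6 1.24%. The coefficient of variation of a member's CPM over libraries was 31.7% to 49.3% for the mitochondrial-encoded members (median 36.7%) and had a median of 21.6% for the nuclear-encoded ones.

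The share of each library taken by the 7 mitochondrial-encoded members differed most between cancer and naive mice in the TSLPR+ST2+ gate. It was 0.858%, 0.603%, 0.445% and 0.535% in naive mice 1 to 4, and 1.76%, 1.51%, 2.16% and 0.975% in cancer mice 5 to 8. All 4 cancer libraries lay above all 4 naive libraries, with mouse 8 nearest to naive mouse 1. Group means were 0.61% ± 0.177 (SD, n = 4) and 1.6% ± 0.497 (SD, n = 4). The share of the 93 nuclear-encoded members in the same libraries was 1.77%, 1.54%, 1.2% and 1.44% in naive and 1.89%, 1.78%, 2.46% and 1.73% in cancer mice. These ranges overlapped, since mouse 8 lay below naive mouse 1. The log2 ratio of mitochondrial-encoded to nuclear-encoded counts was -1.05, -1.36, -1.42 and -1.43 in naive and -0.1, -0.24, -0.18 and -0.83 in cancer mice, again without overlap, and the difference of the group means was 0.98 (0.92 without the library of mouse 7). The shares are sums over chosen members and carry no test.

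**Figure D1:**
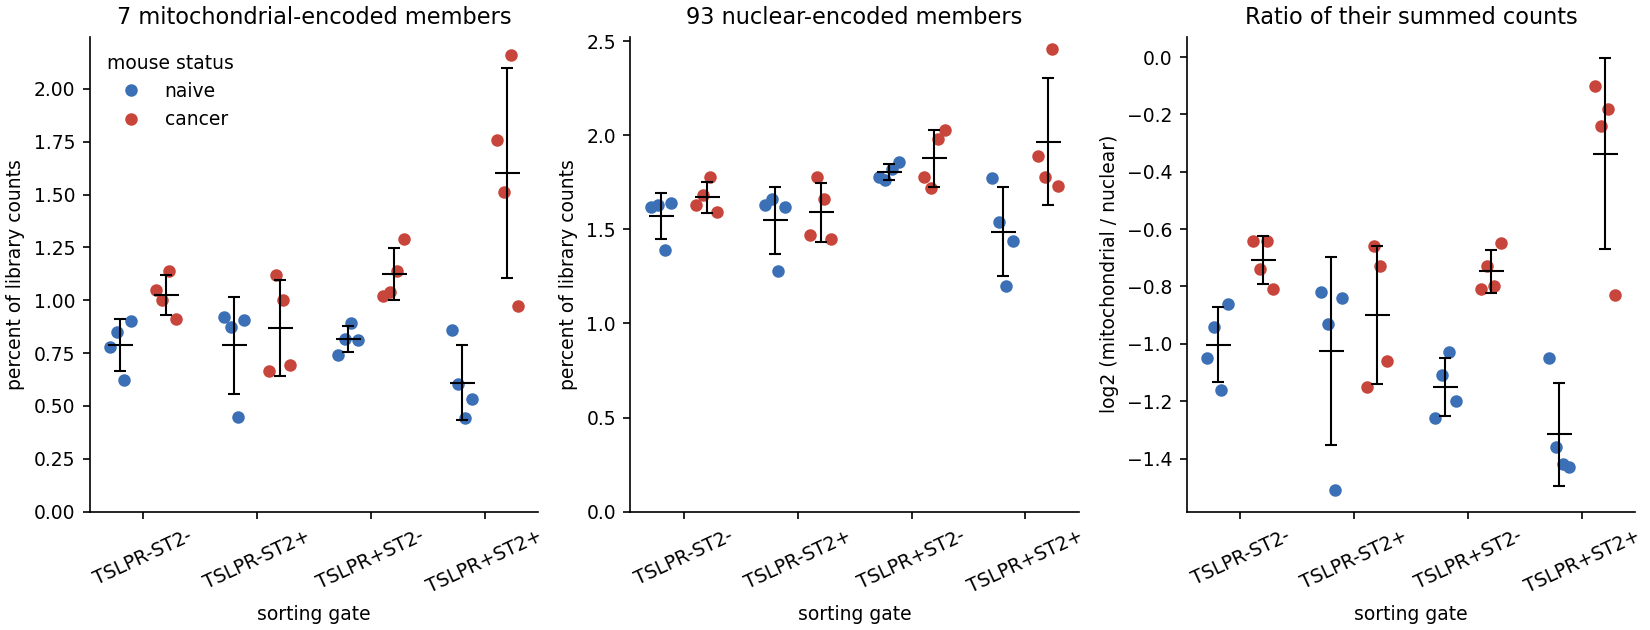
Share of library counts (percent) of the 7 mitochondrial-encoded and the 93 nuclear-encoded members and the log2 ratio of the former to the latter, by sorting gate; each point is 1 library and each bar a mean of 4 mice. In TSLPR+ST2+ the naive libraries hold 0.445% to 0.858% mitochondrial-encoded counts and the cancer libraries 0.975% to 2.16%.

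In the other gates the shares lay closer together. In TSLPR+ST2- the mitochondrial-encoded share was 0.743% to 0.89% in naive and 1.02% to 1.29% in cancer mice, without overlap. In TSLPR-ST2- it was 0.623% to 0.902% in naive and 0.912% to 1.14% in cancer mice, adjoining but not overlapping. In TSLPR-ST2+ the ranges of 0.446% to 0.923% and 0.663% to 1.12% overlapped, and the mean difference of 0.0827 percentage points became -0.0308 without mouse 3, whose library was the low one. The nuclear-encoded share differed by less, with naive and cancer means of 1.81% and 1.88% in TSLPR+ST2-, 1.57% and 1.67% in TSLPR-ST2-, and 1.55% and 1.59% in TSLPR-ST2+. The CD44low Foxp3-negative T cell library held 0.879% mitochondrial-encoded and 1.6% nuclear-encoded counts, a log2 ratio of -0.87.

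With the 4 gates of each mouse summed, 4 mitochondrial-encoded members rose in cancer mice and no nuclear-encoded member passed the test. mt-Nd5, a proton-pumping subunit of complex I, was at 789, 781, 601 and 749 CPM in naive mice and 1051.1, 1175.7, 1308.6 and 1066.1 CPM in cancer mice. mt-Cytb was at 2143.5, 2026.6, 1643.9 and 1999.9 CPM against 2732.8, 2934.3, 3062.3 and 2562.0 CPM. Neither gene's groups overlapped, and mouse 3 was the lowest and mouse 7 the highest for both. Their log2 fold changes were 0.66 ± 0.10 (SE) for mt-Nd5 and 0.53 ± 0.08 for mt-Cytb, with edgeR adjusted p of 0.0214 and 0.0261. mt-Nd6 (0.82, adjusted p = 0.0318) and mt-Nd2 (0.62, adjusted p = 0.0322) also rose by edgeR's test. mt-Nd1 (0.52, adjusted p = 0.0555), mt-Nd4 (0.56, adjusted p = 0.0592) and mt-Co1 (0.58, adjusted p = 0.104) did not pass it. mt-Co1 was at 2192.8 to 3121.9 CPM in naive and 3322.9 to 5394.4 CPM in cancer mice, so its groups did not overlap either.

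Thus 4 of 7 mitochondrial-encoded members were called per mouse, and 0 of 93 nuclear-encoded ones, against 1.21% of all 15338 genes tested. The medians of the log2 fold changes were 0.58 over the mitochondrial-encoded members, 0.17 over the nuclear-encoded members and 0.01 over all genes. Of the 93 nuclear-encoded members, 82 had a value above 0, against 51.3% of all genes. By edgeR 20 of the 93 had an unadjusted p under 0.05, against 16.9% of all genes. DESeq2 called 7 mitochondrial-encoded and 2 nuclear-encoded members. Mice were few: leaving out mouse 2, 4, 6 or 7 left 0 mitochondrial-encoded members called, mouse 5 left 1, and mouse 1 or mouse 8 left 2. Leaving out only the TSLPR+ST2+ library of mouse 7 left 4 called, with a median of 0.50.

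In the TSLPR+ST2+ gate all 7 mitochondrial-encoded members rose in cancer mice, by 2.39-fold to 3.11-fold. mt-Cytb was at 2182.5, 1580.0, 1302.9 and 1374.2 CPM in naive mice 1 to 4 and at 4633.8, 3695.7, 4508.4 and 2570.7 CPM in cancer mice 5 to 8. Every cancer library was above every naive one, with mouse 8 the lowest of the cancer mice. Its log2 fold change was 1.26 ± 0.18 (SE, 2.39-fold, edgeR adjusted p = 0.00021). mt-Co1, which forms the oxygen-reducing centre of complex IV, was at 3199.9, 2127.3, 1565.2 and 1824.6 CPM against 6451.7, 5365.1, 11686.0 and 3623.0 CPM. Mouse 7 was the highest and mouse 8 again the lowest of the cancer mice, still above naive mouse 1. The log2 fold change was 1.64 ± 0.27 (3.11-fold, edgeR adjusted p = 0.000759).

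The complex I subunits of the mitochondrial genome moved by similar amounts in this gate. mt-Nd5 was at 833, 695, 506 and 585 CPM in naive and 1606.4, 1507.1, 2190.9 and 974 CPM in cancer mice (log2 fold change 1.26 ± 0.19, edgeR adjusted p = 0.000256). mt-Nd2 was at 450, 347, 232 and 323 CPM against 1115.6, 978, 945 and 523 CPM (1.40 ± 0.22, edgeR adjusted p = 0.000643). Neither gene's groups overlapped, and for mt-Nd2 the highest library was mouse 5 and not mouse 7. mt-Nd1 was at 1249.1, 853, 639 and 764 CPM against 2426.6, 2158, 2941.7 and 1167.3 CPM (1.31 ± 0.22, edgeR adjusted p = 0.00105). It was the 1 mitochondrial-encoded member whose groups overlapped, since mouse 8 lay below naive mouse 1. mt-Nd4 was at 563, 428, 274 and 375 CPM against 1119.3, 911, 1324.3 and 601 CPM (1.27, edgeR adjusted p = 0.00137). mt-Nd6, the 1 protein encoded on the other strand, was at 104, 81.1, 51.7 and 68.7 CPM against 227, 196, 320 and 126 CPM (1.51 ± 0.26, edgeR adjusted p = 0.00137). Since the libraries do not mark strand, reads at mt-Nd6 could not be assigned to its strand.

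All 7 of 7 mitochondrial-encoded members and 23 of 93 nuclear-encoded members were called in TSLPR+ST2+, none lower, against 4.16% of the 14861 genes tested (1.66% higher). The median log2 fold changes were 1.31 for the mitochondrial-encoded, 0.47 for the nuclear-encoded members and 0.05 for all genes. A fit restricted to the 8 libraries of this gate called 0 members of either genome, with adjusted p of 0.0551 to 0.0853 for the mitochondrial-encoded ones and a median of 1.32. Without the library of mouse 7, 7 mitochondrial-encoded members were still called (median 1.17, adjusted p 0.00147 to 0.0092 by edgeR), and 1 nuclear-encoded member, Ndufb10.

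Several other measures moved with this comparison. Library totals were 4038718, 4924172, 4869433 and 5816224 counts in cancer and 6607867 to 8839946 in naive mice, without overlap. The summed level of 10 macrophage and dendritic markers was 385.5, 779.3, 759.2 and 411.8 CPM in cancer and 2182.5, 1978.1, 1366.3 and 1723.9 CPM in naive mice, although 0 of its 10 genes passed edgeR's test (1 with an unadjusted p under 0.05). The summed epithelial markers were 529.5, 231.8, 14141.3 and 187.2 CPM in cancer and 328.8, 208.8, 158.5 and 214.6 CPM in naive mice, and 5 of the 8 tested rose. Without the library of mouse 7, 0 of the 8 passed edgeR's test. No tested marker of B and plasma, stromal and endothelial, CD8 and NK, or neutrophil cells passed in this gate. Those tested were 6 of 6, 2 of 5, 2 of 4 and 1 of 4 listed, in that order. The summed B and plasma markers were 416.4, 821.7, 159.8 and 346.5 CPM in cancer mice. In naive mice they were 140.8, 252.2, 350.3 and 83.4 CPM, so the ranges overlapped. Of 6 Treg markers 1 rose and 2 fell. Among neutrophil markers S100a9 was at 0 in every Treg library. Malat1, a nuclear non-coding RNA looked at after its values were seen, was at 940 to 1194.5 CPM in cancer and 402 to 739 CPM in naive mice. The part of these measures in the result was not tested, apart from leaving out mouse 7. Thinning every library to 4038718 counts left 7 mitochondrial-encoded and 27 nuclear-encoded members called. Thinning keeps each gene's expected share of a library, so it cannot show whether a low total goes with a high share.

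**Figure D2:**
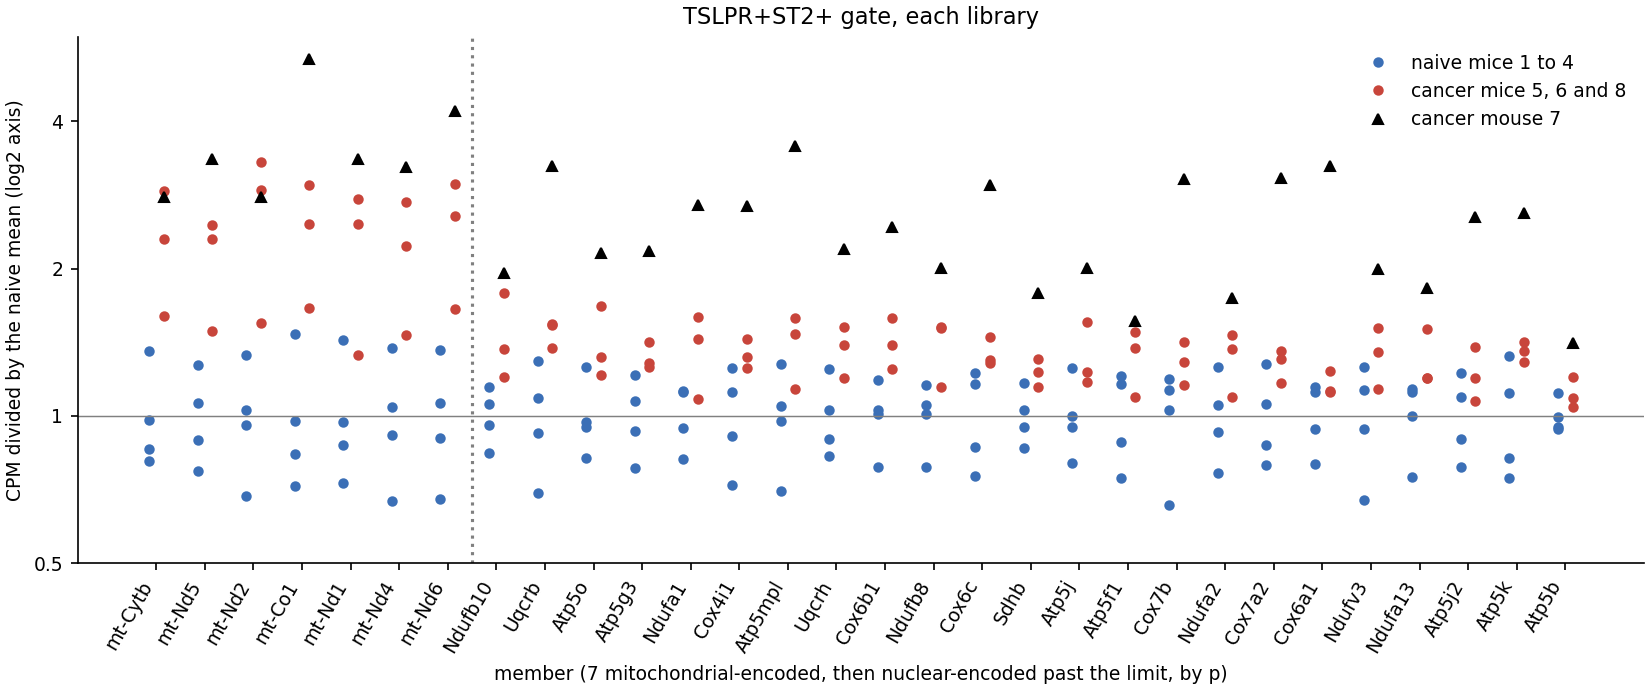
TSLPR+ST2+ gate: CPM of each library divided by the naive mean (log2 axis) for the 7 mitochondrial-encoded members and the 23 nuclear-encoded members past the test, with naive and cancer libraries marked. The cancer library of mouse 7 is the highest for all 23 nuclear-encoded members, and mt-Co1 reaches 11686.0 CPM in it.

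The nuclear-encoded members called in TSLPR+ST2+ came from every complex: 6 of 37 in complex I, 1 of 4 in complex II, 2 of 8 in complex III, 6 of 15 in complex IV and 8 of 17 in complex V, with 0 of 12 assembly factors. Ndufb10, an accessory subunit of complex I, was at 129, 119, 94.6 and 108 CPM in naive and 154, 201, 221 and 135 CPM in cancer mice. All cancer libraries were above all naive ones. Its log2 fold change was 0.66 ± 0.14 (1.58-fold, edgeR adjusted p = 0.00718), and 0.53 (adjusted p = 0.0391) without the library of mouse 7. Uqcrb, a complex III subunit that binds ubiquinone, was at 139, 117, 74.9 and 99.2 CPM against 165, 166, 349 and 148 CPM. The groups were apart by little except in mouse 7. Its log2 fold change was 0.95 ± 0.21 (edgeR adjusted p = 0.0102), and 0.57 (adjusted p = 0.0729) without that library.

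In ATP synthase, Atp5o, which ties the catalytic head to the outer stalk, was at 207, 160, 135 and 156 CPM in naive and 276, 217, 354 and 199 CPM in cancer mice (log2 fold change 0.67 ± 0.15, edgeR adjusted p = 0.0107). Mouse 8 lay below naive mouse 1. Without mouse 7's library its adjusted p was 0.0619. Atp5g3, one of 3 genes for the proton-carrying c subunit, was at 457, 404, 295 and 351 CPM against 533, 474, 817 and 484 CPM (0.61 ± 0.14, edgeR adjusted p = 0.0124, and 0.0741 without that library). All its cancer libraries were above the naive ones. Ndufa1, a small complex I subunit, was at 160, 159, 116 and 134 CPM against 226, 204, 383 and 154 CPM (0.76 ± 0.18, edgeR adjusted p = 0.0148, and 0.0993 without that library), with mouse 8 inside the naive range. Cox4i1, the widely expressed form of complex IV subunit 4, was at 438, 392, 253 and 319 CPM against 504, 463, 943 and 438 CPM (0.74 ± 0.17, edgeR adjusted p = 0.0151, and 0.0992 without that library). Its lowest cancer library and highest naive library, mice 8 and 1, were level. Atp5o shares 38.8% of its 58-base windows with other annotated transcripts and Uqcrb 22.6%, so their values are uncertain to that extent.

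Of the members whose promoters are shown, Sdhb, the iron-sulphur subunit of complex II, was at 345, 304, 254 and 280 CPM in naive and 339, 387, 527 and 364 CPM in cancer mice of this gate (log2 fold change 0.45, edgeR adjusted p = 0.026). Mouse 5 lay inside the naive range. Uqcrh was at 277, 228, 184 and 199 CPM against 337, 310, 486 and 265 CPM, and Cox6b1 at 313, 272, 208 and 267 CPM against 419, 369, 646 and 330 CPM. The Uqcrh groups overlapped at mouse 8 and the Cox6b1 groups did not. Both rose, by 0.66 (edgeR adjusted p = 0.016) and 0.73 (adjusted p = 0.0168) on the log2 scale. Atp5k rose by 0.73 (edgeR adjusted p = 0.0472). Among 17 called members with a promoter, 3 held the NRF1 core, 5 the ETS core and 2 the YY1 core, and 41.2% held at least 1, compared with 46.1% over all members. The count of nuclear-encoded calls moved with the mice in the fit: it was 13 without mouse 2, 1 without mouse 3, 1 without mouse 4, 0 without mouse 7 and 35 without mouse 8.

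**Figure D3:**
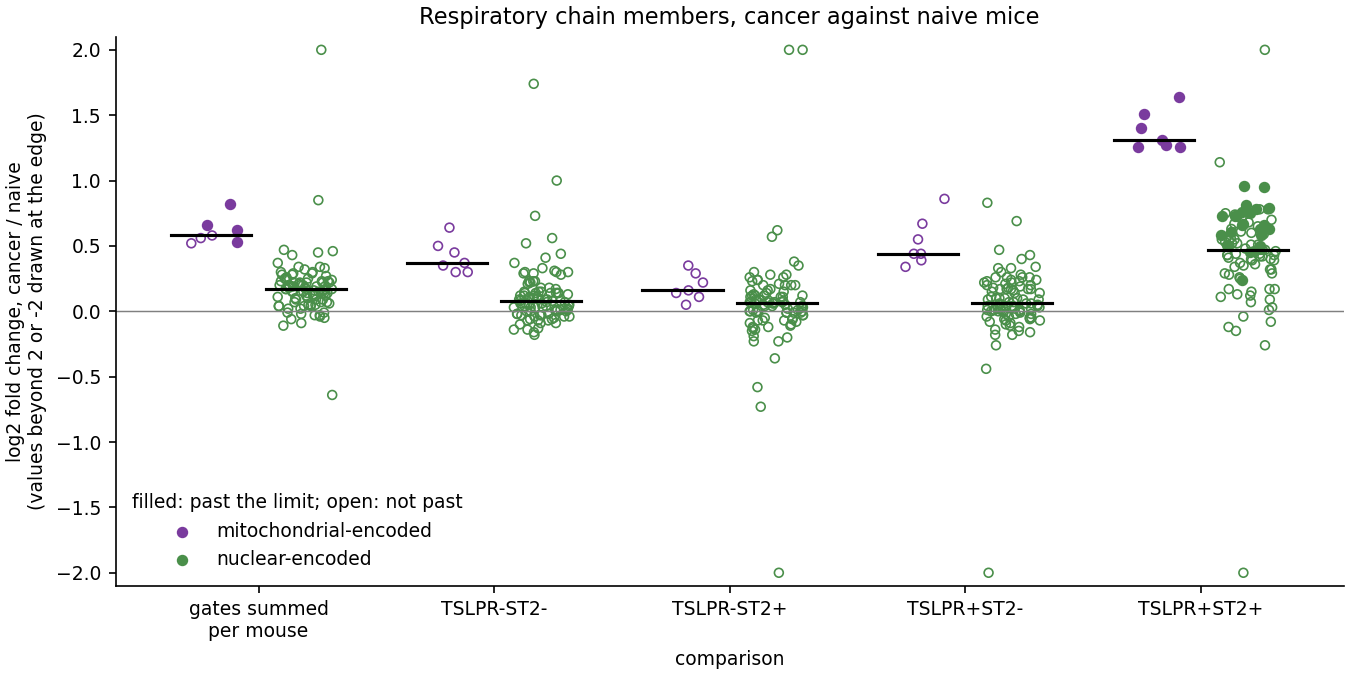
Log2 fold change of each member, cancer over naive, for gates summed per mouse and for the 4 gates; filled points passed edgeR's test, and values beyond 2 or -2 are drawn at the edge. The 7 mitochondrial-encoded members reach 1.26 to 1.64 in TSLPR+ST2+, where 23 nuclear-encoded members also passed.

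In the remaining gates no member of either genome passed edgeR's test. The background was 0.209% of genes in TSLPR-ST2-, 0.202% in TSLPR-ST2+ and 0.0471% in TSLPR+ST2-. All 7 mitochondrial-encoded members had a log2 fold change above 0 in each of them. The medians were 0.37 in TSLPR-ST2- (3 with an unadjusted p under 0.05), 0.16 in TSLPR-ST2+ (0 of 7) and 0.44 in TSLPR+ST2- (5 of 7). The nuclear-encoded medians were 0.08, 0.06 and 0.06, with 2, 3 and 2 of 93 at an unadjusted p under 0.05. Over all genes the shares at that limit were 7.41%, 10.6% and 7.4% in the same order. DESeq2 called 1 mitochondrial-encoded member in TSLPR+ST2- and none in the other gates. The TSLPR-ST2+ median was -0.03 without mouse 3.

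In TSLPR+ST2- the cancer and naive libraries were apart for every mitochondrial-encoded member. mt-Co1 was at 2671.2, 3231.8, 3405.8 and 3067.7 CPM in naive and 3701.2, 3853.3, 4057.9 and 4025.4 CPM in cancer mice. mt-Cytb was at 1955.4, 2154.4, 2314.9 and 2160.9 CPM against 2575.2, 2735.2, 2905.7 and 3419.4 CPM. The lowest cancer library exceeded the highest naive library for both, and the log2 fold changes of 0.34 ± 0.26 and 0.44 ± 0.18 did not pass edgeR's test (adjusted p = 0.927 and 0.616). Complete separation of this kind, cancer above naive, held for 3 of 7 mitochondrial-encoded members in TSLPR-ST2-, 0 in TSLPR-ST2+, 7 in TSLPR+ST2- and 6 in TSLPR+ST2+. It held for 4, 1, 3 and 16 of the 93 nuclear-encoded members in the same order. Over all genes tested the shares were 2.35%, 1.53%, 2.95% and 3.98%.

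Whether the cancer difference itself differed between gates was tested with interaction terms, and no member passed either of them by edgeR or DESeq2. The background was 0.0% of genes for the interaction with TSLPR and 0.0% for that with ST2. For TSLPR, all 7 mitochondrial-encoded members had an unadjusted p under 0.05 and a difference above 0 (median 0.64, or 0.57 without the library of mouse 7), with edgeR adjusted p from 0.421 to 0.528. For mt-Cytb the difference was 0.61 ± 0.18 (SE). The nuclear-encoded members had a median of 0.20, with 6 of 93 at an unadjusted p under 0.05, against 7.93% of all genes. For ST2, the medians were 0.31 for the mitochondrial-encoded members, with 0 of 7 at an unadjusted p under 0.05, and 0.21 for the nuclear-encoded members, with 8 of 93. Of all genes, 6.23% had an unadjusted p under 0.05 for ST2. Each term averages TSLPR+ST2+ with a single-positive gate. Whether the larger values in TSLPR+ST2+ alone differ from those of the other gates was therefore not tested.

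In TSLPR+ against TSLPR- Treg 27 nuclear-encoded members rose, 1 fell, and none of the 7 mitochondrial-encoded members passed, whereas the mitochondrial ribosomal RNA mt-Rnr1, which is no member, rose by 0.44 on the log2 scale (edgeR adjusted p = 0.0247). The background was 13.4% of 14861 genes (7.97% higher), beside 28 of 93 nuclear-encoded and 0 of 7 mitochondrial-encoded members. The mitochondrial-encoded log2 fold changes were 0.09 to 0.21 (median 0.17), with edgeR adjusted p from 0.21 to 0.677, 0 of 7 at an unadjusted p under 0.05, and none called by DESeq2. The nuclear-encoded median was 0.21 and that of all genes 0.01. By complex as assigned from the symbol, 9 of 37 members of complex I rose, 2 of 4 of complex II, 4 of 8 of complex III, 8 of 15 of complex IV, 4 of 17 of complex V and 0 of 12 assembly factors. Ndufa4 is among the 9. The medians of the members of both genomes thus lay close together, and a difference between the genomes was not tested.

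Complex II, which has no mitochondrial-encoded subunit, split by subunit. Sdhd, its membrane anchor, was at 196 to 321 CPM (median 241) in the 16 TSLPR+ libraries and 157 to 231 CPM (median 181) in the 16 TSLPR- libraries. It was higher in TSLPR+ Treg in 8 of 8 mice, although the ranges overlapped. The log2 fold change was 0.35 ± 0.07 (SE, edgeR adjusted p = 0.000818). Sdhb was at 254 to 527 CPM (median 357) against 250 to 358 CPM (median 302), higher in 8 of 8 mice (0.23 ± 0.06, edgeR adjusted p = 0.008). Sdha, the flavoprotein that oxidises succinate, fell by 0.19 ± 0.06 on the log2 scale (edgeR adjusted p = 0.0242), with 376 to 576 CPM (median 472) in TSLPR+ and 457 to 642 CPM (median 534) in TSLPR- libraries. It was higher in TSLPR+ Treg in 1 of 8 mice. This call was lost when mouse 2, 3, 4, 5 or 7 was left out (largest adjusted p 0.133). Sdhc, the other anchor, was at 0.15 and did not pass the test (adjusted p = 0.245). These log2 fold changes fell in order of merged exon length. It was 1231 bases for Sdhd, 2239 for Sdhb, 3250 for Sdhc and 4126 for Sdha. The part of length in the split was not tested.

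Among the other complexes, Ndufb8 of complex I ran from 75.6 to 193 CPM (median 129) in TSLPR+ and 80.4 to 121 CPM (median 99.7) in TSLPR- libraries (log2 fold change 0.32 ± 0.08, edgeR adjusted p = 0.00369). Cox8a, a small subunit of complex IV, ran from 194 to 879 CPM (median 352) against 185 to 330 CPM (median 264) (0.48 ± 0.11, edgeR adjusted p = 0.00382). Both were higher in TSLPR+ Treg in 8 of 8 mice. Uqcrb of complex III was at 74.9 to 349 CPM (median 135) against 77.5 to 147 CPM (median 104) (0.42 ± 0.10, edgeR adjusted p = 0.00577). Atp5g3 of ATP synthase was at 295 to 817 CPM (median 479) against 298 to 469 CPM (median 405) (0.28 ± 0.07, edgeR adjusted p = 0.00745). These 2 were also higher in 8 of 8 mice, and the upper end of the TSLPR+ ranges of Cox8a, Uqcrb and Atp5g3 is the library of mouse 7.

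**Figure D4:**
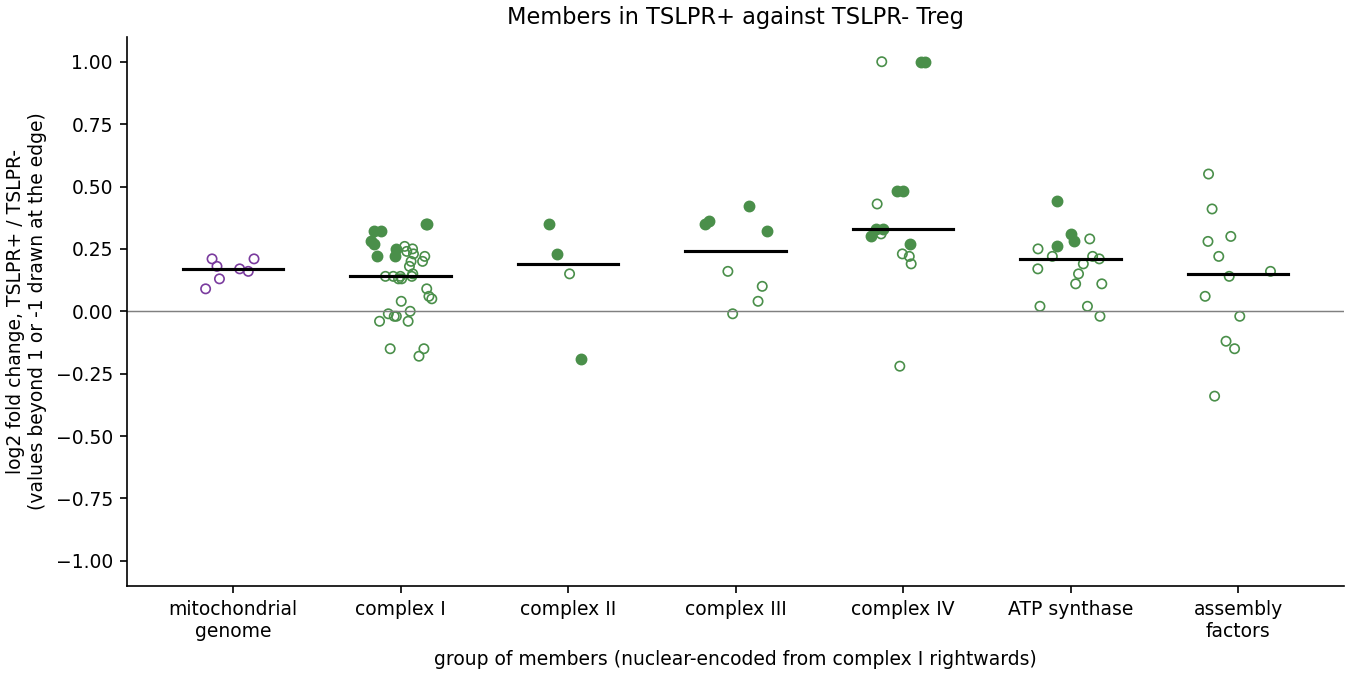
Log2 fold change of each member, TSLPR+ over TSLPR- Treg, grouped as mitochondrial-encoded and, for nuclear-encoded members, by complex and assembly factors; filled points passed edgeR's test, and values beyond 1 or -1 are drawn at the edge. The 7 mitochondrial-encoded members lie between 0.09 and 0.21, all open; in complex II Sdhd at 0.35 and Sdha at -0.19 lie on opposite sides of 0.

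Of the 28 calls, 12 held under all 14 alternatives, namely Cox5a, Sdhd, Sdhb, Atp5g3, Atp5mpl, Uqcrb, Ndufb8, Ndufa4, Ndufb7, Cox8a, Uqcr10 and Ndufs8. The count was 21 (20 higher) without the library of mouse 7, 14 when mouse 1 was left out, 16 when mouse 4 was and 18 when mouse 2 or mouse 7 was. The summed macrophage and dendritic markers were 139.9 to 2182.5 CPM in TSLPR+ and 2.51 to 2629.5 CPM in TSLPR- libraries, and the epithelial markers 60.1 to 14141.3 CPM against 31.1 to 170.9 CPM. By edgeR's test 7 of 10 macrophage and dendritic markers, 5 of 6 B and plasma markers and 3 of 8 tested epithelial markers (2 without the library of mouse 7) rose in TSLPR+ Treg. Their part in the difference was not tested. Of 20 called members with a promoter, 8 held the ETS core (40.0%, against 26.3% of all members), 2 the NRF1 core and 2 the YY1 core.

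By ST2, 0 of 7 mitochondrial-encoded members and 2 of 93 nuclear-encoded ones were called, against 6.04% of genes. The mitochondrial-encoded median was 0.0, with 0 of 7 at an unadjusted p under 0.05 and none called by DESeq2. Atp5b fell in ST2+ Treg, where it was at 1346.1 to 2013.0 CPM (median 1578.0) against 1685.1 to 1997.1 CPM (median 1836.0) in ST2- Treg. It was lower in ST2+ in 8 of 8 mice although the ranges overlapped. The log2 fold change was -0.21 ± 0.04 (SE, edgeR adjusted p = 0.000284). Cox6b2, the testis form of a complex IV subunit, had 4 counts in naive TSLPR-ST2+, 13 in naive TSLPR+ST2+ and none in the cancer ST2+ groups, against 28 to 50 counts in each of the 4 ST2- groups, and fell in ST2+ Treg (edgeR adjusted p = 0.00162). It was a rare transcript in both. Of 10 macrophage and dendritic markers 8 rose in ST2+ Treg, and their part was not tested. Both calls held under all 14 alternatives, and 5 nuclear-encoded members, all lower, were called without the library of mouse 7.

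Between the single-positive gates, TSLPR+ST2- against TSLPR-ST2+, 7 nuclear-encoded members rose and no mitochondrial-encoded member passed (0 of 7 at an unadjusted p under 0.05, and 0 by DESeq2), against 2.67% of genes. Atp5b was at 1770.5 to 1997.1 CPM in the 8 TSLPR+ST2- libraries and 1443.5 to 1710.1 CPM in the 8 TSLPR-ST2+ libraries. These ranges did not overlap. The log2 fold change was 0.23 ± 0.05 (SE, edgeR adjusted p = 0.0074), and the call held under all 14 alternatives. Atp5g1, another c subunit gene, was at 150 to 193 CPM against 88.9 to 145 CPM, also without overlap (0.48 ± 0.12, edgeR adjusted p = 0.0245, lost when mouse 1, 2, 3, 4, 5 or 8 was left out). Ndufb8 (0.43), Ndufs8 (0.48), Atp5g3 (0.37) and Ndufa4 (0.30) rose with edgeR adjusted p of 0.0223, 0.0355, 0.0316 and 0.0381. The 7th was Cox6b2, with 29 and 50 counts in naive and cancer TSLPR+ST2- against 4 and 0. The count was 15 with the mouse as a block, 18 without the library of mouse 7, 2 when mouse 1, 2 or 5 was left out, 4 when mouse 3 was, and 1 when mouse 4 or mouse 8 was.

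Where a subunit has tissue-specific paralogues, the Treg libraries held the widely expressed form. In mean CPM per kilobase, Cox4i1 was at 269 and Cox4i2, the form induced by low oxygen in lung, at 0.931. Cox6a1 was at 511 and the heart and muscle form Cox6a2 at 1.2, from 164 counts in 4 libraries. Cox6b1 was at 443 and Cox6b2 at 0.759. Cox7a2 was at 167, the related Cox7a2l at 97.5, and the heart and muscle form Cox7a1 at 6.66. Cox8a was at 509, while its muscle form Cox8b had 0 counts. Ndufa4 was at 175, and Ndufa4l2, known as induced by hypoxia, had 4 counts in all. Of the 3 c subunit genes with the same mature protein, Atp5g3 was at 203, Atp5g1 at 28.5 and Atp5g2 at 20. Of 559 counts of Cox7a1, 339 were in the library of mouse 7. Cox7a1 and Cox4i2 were among the 27 members higher in TSLPR+ Treg (edgeR adjusted p = 0.0145 and 0.022), with medians of 1.83 against 0.0633 CPM and 0.988 against 0 CPM. The Cox7a1 call was lost without the library of mouse 7 (log2 fold change 2.18, adjusted p = 0.0857) and when mouse 2 or mouse 7 was left out, and the Cox4i2 call when mouse 1, 2, 4 or 6 was (largest adjusted p 0.0696).

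Few genes that serve the mitochondrial genome passed a test. Of 33 listed genes for mitochondrial transcription, replication and RNA handling, 31 were tested, and 0 passed edgeR's test in any comparison of cancer with naive mice. In TSLPR+ST2+ their median log2 fold change was 0.07, with 3 of the 31 at an unadjusted p under 0.05, against 20.2% of all genes. In TSLPR+ Treg 3 of the 31 fell (9.68%, against 5.46% of all genes): Rexo2, which degrades short RNAs in mitochondria, by 0.35 (edgeR adjusted p = 0.000475), with Trmt10c and Ptcd3. The Trmt10c call was lost when mouse 1 was left out, and the Ptcd3 call without the library of mouse 7 (adjusted p = 0.0562) and with each of 5 mice left out. Rexo2 also fell in ST2+ Treg, by 0.57 (edgeR adjusted p = 1.47e-06). The ribosomal RNAs of the mitochondrial genome rose in cancer TSLPR+ST2+ Treg, mt-Rnr1 by 1.95 ± 0.27 and mt-Rnr2 by 1.76 ± 0.26 on the log2 scale (edgeR adjusted p = 0.000188 and 0.000227, or 0.00125 and 0.00147 without the library of mouse 7). With the gates summed per mouse they rose by 1.03 and 0.82 (edgeR adjusted p = 0.0162 and 0.0338); the first call was lost when mouse 2, 4 or 6 was left out and the second with any mouse but mouse 3 left out. The mt-Rnr1 call in TSLPR+ Treg was lost when mouse 1 or mouse 5 was left out. mt-Rnr1 averaged 595 CPM ± 211 (SD) in naive and 2291.2 CPM ± 979 in cancer mice of that gate. Of 6 tested non-coding mitochondrial genes, 3 rose in that gate, the other being the transfer RNA mt-Tq, whose call was lost without the library of mouse 7 (adjusted p = 0.231).

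The lists for the nuclear side of the pathway held few calls in cancer TSLPR+ST2+ Treg, where 1.66% of all genes rose and 2.5% fell. Of 13 tested nuclear regulators, Myc, which drives growth and mitochondrial biogenesis, fell by 0.62 (edgeR adjusted p = 0.0407), and its mean was 226 CPM ± 43.1 (SD) in naive and 147 CPM ± 19.1 in cancer mice. Without the library of mouse 7 the adjusted p of Myc was 0.125. Myc also fell in TSLPR+ Treg by 0.70 (edgeR adjusted p = 1.15e-06) and in ST2+ Treg by 0.48 (adjusted p = 0.000667), and Nrf1 fell in TSLPR+ Treg by 0.49; these 3 calls held under all 14 alternatives. Of 16 electron carriers and subunits missed by the name rule, Cycs (cytochrome c) rose, by 0.96 (edgeR adjusted p = 0.0204), at 52.6 CPM ± 15.4 in naive and 103 CPM ± 60.4 in cancer mice, but by 0.48 with an adjusted p of 0.169 without the library of mouse 7. Of 77 mitochondrial ribosomal proteins 2 rose, Mrpl34 by 0.75 and Mrps21 by 0.73, with a list median of 0.29, and of 24 import genes 1, Timm17b by 0.46. Of these only Mrpl34 was still called without the library of mouse 7 (adjusted p = 0.0352, against 0.0557 for Mrps21 and 0.0903 for Timm17b). None of 38 assembly factors on a wider list, 19 genes of pyruvate dehydrogenase and the TCA cycle, or 12 nucleotide carriers, uncouplers and antioxidant enzymes passed there, with medians of 0.12, 0.16 and 0.36. By edgeR 11, 6 and 7 of them had an unadjusted p under 0.05, against 20.2% of all genes.

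In TSLPR+ Treg, where 7.97% of all genes rose, 8 of 77 mitochondrial ribosomal proteins rose (10.4%, median of the list 0.11), 2 of 38 assembly factors (5.26%), 2 of 19 TCA genes (10.5%), 2 of 24 import genes (8.33%) and 1 of 16 carriers and subunits (6.25%), shares near that of all genes. Of the 12 nucleotide carriers, uncouplers and antioxidant enzymes 4 rose (33.3%, or 3 without the library of mouse 7), among them Ucp2 by 0.29 (edgeR adjusted p = 2.45e-06), Sod2 and Prdx5. Mrps6, Mrpl54 and Mrps21, the assembly factor Coa4, the import genes Timm17b and Tomm7, and Atpif1, the inhibitor of ATP synthase (0.59, adjusted p = 0.00802), were called under all 14 alternatives. The assembly factor Uqcc2 and the TCA enzymes Mdh2 and Idh3a were not called without the library of mouse 7 (adjusted p = 0.0739, 0.0567 and 0.0598).

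Genes were classed by merged exon length, the bases covered by all annotated exons of a gene, which can exceed the length of a transcript. By this length, short protein-coding genes had higher median log2 fold changes than long ones in both comparisons with 20 or more nuclear-encoded calls. The members are mostly short: 22 have under 1 kb of exon, 35 have 1 to 2 kb, 23 have 2 to 4 kb and 13 have more. In cancer against naive TSLPR+ST2+ Treg the median log2 fold change of all protein-coding genes was 0.45 under 1 kb, 0.26 at 1 to 2 kb, -0.04 at 2 to 4 kb and -0.08 over 4 kb. The nuclear-encoded members in these classes had medians of 0.61, 0.48, 0.40 and 0.41, and 31.8%, 20.0%, 30.4% and 15.4% of them were called higher, against 9.06%, 4.82%, 1.49% and 1.15% of all protein-coding genes. In TSLPR+ against TSLPR- Treg the protein-coding medians were 0.24, 0.16, 0.05 and -0.05 and the member medians 0.28, 0.19, 0.15 and 0.02. There 45.5%, 28.6%, 26.1% and 7.69% of members were called higher, against 23.4%, 17%, 11% and 6.12% of protein-coding genes. With all libraries the members exceeded their length class in every one of these values. Without the library of mouse 7 the TSLPR+ST2+ medians were 0.37, 0.33, 0.28 and 0.26 for the members and 0.38, 0.17, -0.08 and -0.11 for protein-coding genes, so the shortest members no longer exceeded their class. The TSLPR medians were then 0.22, 0.13, 0.13 and 0.0 for the members against 0.22, 0.15, 0.04 and -0.05. What part of the nuclear-encoded rise goes with merged exon length or with transcript length was not tested further.

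**Figure D5:**
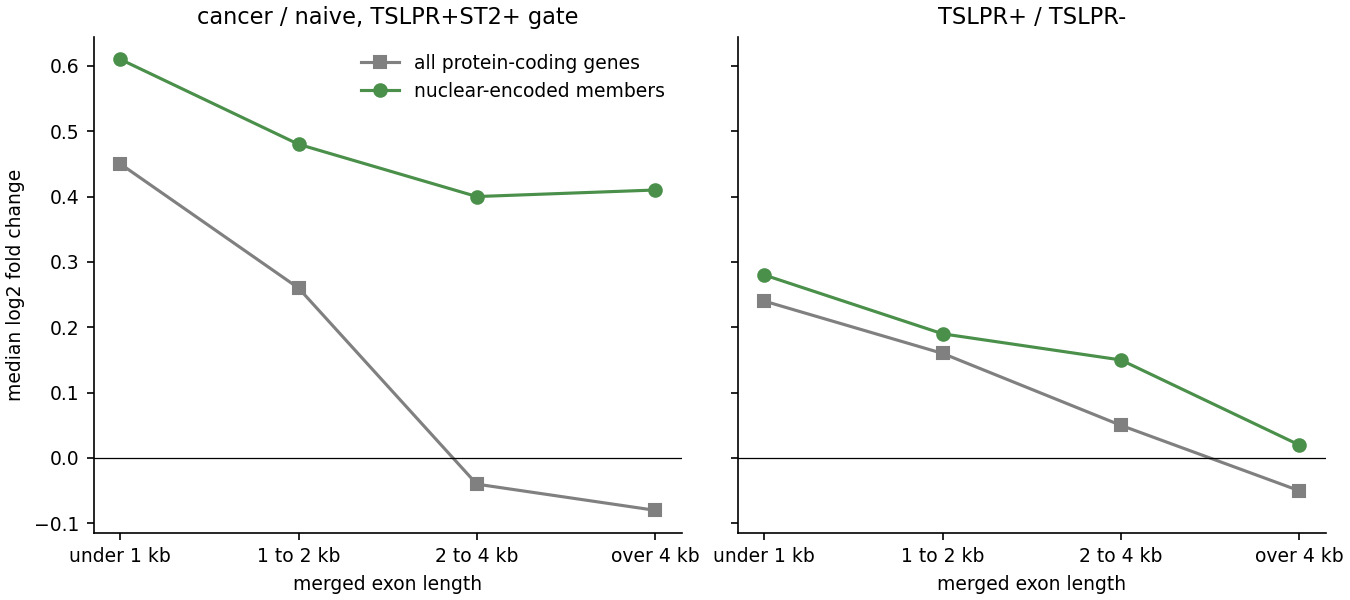
Median log2 fold change by merged exon length (4 classes) of all protein-coding genes and of the nuclear-encoded members, in cancer against naive TSLPR+ST2+ Treg and in TSLPR+ against TSLPR- Treg. In both comparisons the value for all protein-coding genes falls from the shortest class (0.45 and 0.24) to the longest (-0.08 and -0.05), and the members lie above it in each class with all libraries.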

How the data were processed

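RNA of 200 sorted cells per library was amplified with SMART-Seq v4 and made into Nextera XT libraries, read as single 58-base reads, per the labels' protocols; this chemistry does not mark strand. The authors deposited 1 table of whole-number counts per gene for 33 libraries. HTSeq 0.4.1, Picard 1.134, SAMtools 1.2, FastQC 0.11.3 and the build GRCm38 are named, per the submitters' processing notes. The sources used here do not name the aligner, annotation or strand setting. Rows with no symbol (191 of 53465) stayed in the fits. Gene models, lengths and positions are from GENCODE M21.

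Counts were tested with edgeR 4.0.16 under R 4.3.3 (TMM scaling, quasi-likelihood F-test, filterByExpr with a minimum count of 10 and a minimum total of 15, Benjamini-Hochberg adjustment over all genes tested, limit 0.05). Gates were compared in 1 group-means model of 32 Treg libraries, mice in a model of 8 sums. In the former, the SE and p given for 1 gate rest on the spread over all gates. CPM are TMM-scaled. The code was tested on simulated counts. Replicates are mice. Alternatives were RLE factors, scaling without mitochondrial genes, DESeq2 1.42.0, no low-count filter, thinning, single-gate fits, each mouse left out, and the mouse as a block (edgeR, or limma 3.58.1 voom with a random block). One alternative, leaving out the cancer TSLPR+ST2+ library of mouse 7, was chosen after seeing the data. The 4 gates of a mouse share an animal by the labels. The mean correlation of their deviations from the group means was 0.00993 over 48 pairs of the same mouse. Across mice, within naive or within cancer, it was -0.00331 over 144 pairs. Of the 48 pairs 3 were over 0.1, and of the 144 pairs 0. Deviations from a group mean cancel out over the mice of that group, so the second mean is tied to the first. It is therefore no separate baseline for whether the gates of a mouse vary together.

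Members and gene lists were chosen with earlier results of these data known, so list counts and medians are descriptions. Named were the mitochondrial-encoded genes, every nuclear-encoded member past the limit or the 6 of smallest p in a direction, the member of each complex with the highest level per kilobase, the paralogue sets, and up to 3 called genes of each other list; the other called genes with promoters shown, Sdhc and Ndufaf8 were added after their values were seen.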

Additional observations from a re-analysis of the deposited data

Results flagged for a closer look

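In 80 checks of 4 libraries each for a library far from the others (Dixon's gap over range at the 95% level), 10 found one. The checks took the shares, their ratio and single mitochondrial-encoded members in the same 8 groups. They are not independent of each other, so the 10 cannot be set against a rate expected by chance. Most of the 10 were the naive TSLPR-ST2+ library of mouse 3. Its mitochondrial-encoded share was 0.446% (the other 3 mice 0.873% to 0.923%), its nuclear-encoded share 1.28% (1.62% to 1.66%) and its log2 ratio -1.51 (-0.93 to -0.82). In it mt-Co1 was at 1560 CPM (3330 to 3490 CPM), mt-Cytb at 1280 CPM (2260 to 2370 CPM), mt-Nd4 at 288 CPM (544 to 581 CPM) and mt-Nd5 at 532 CPM (898 to 900 CPM). The same library had the highest summed macrophage and dendritic markers of all Treg libraries, 2629.5 CPM, and a total of 8164196 counts. The naive TSLPR+ST2+ library of mouse 3 was as low, at 0.445% mitochondrial-encoded and 1.2% nuclear-encoded counts. It had 1366.3 CPM of these markers and 8374465 counts. The part of these cells or of the totals in the low values was not tested.

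In other naive libraries of mouse 3, the nuclear-encoded share was low in TSLPR-ST2- at 1.39% (1.62% to 1.64%), and mt-Nd1 was high in TSLPR+ST2- at 1240 CPM (1030 to 1050 CPM). In cancer TSLPR+ST2- Treg mt-Nd2 was high in mouse 8 at 797 CPM (558 to 595 CPM).

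Epithelial markers, which the sort should leave out, summed to 14141.3 CPM in the cancer TSLPR+ST2+ library of mouse 7, against 159 to 329 CPM in the naive libraries of that gate.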

How the results depend on the processing

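No result changed direction under an alternative where it had been called. In the comparison per mouse DESeq2 called 7 mitochondrial-encoded and 2 nuclear-encoded members, and leaving out each mouse gave 0 to 4 and 0. In TSLPR+ST2- DESeq2 called 1 mitochondrial-encoded member. In TSLPR+ST2+ the fit of the gate alone called 0 members of either genome. The 7 mitochondrial-encoded calls held in the 15 other alternatives, which all estimate the spread over the 4 gates together. The nuclear-encoded count there was 41 with DESeq2, 12 without a low-count filter, 1 without the library of mouse 7, and 0 to 35 with each mouse left out. By ST2 the nuclear-encoded count was 5 without that library and 2 to 3 with each mouse left out. By TSLPR it was 14 to 33 with each mouse left out. Between single-positive gates it was 15 with DESeq2, 3 without a low-count filter, 15 with the mouse as a replicate block, 18 without the library of mouse 7, and 1 to 10 with each mouse left out. The block changed no other count by over 1.5 times.

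The mitochondrial-encoded share in TSLPR+ST2+, cancer minus naive, was 0.991 percentage points, 0.554 without mt-Co1 and 0.805 to 1.2 with each mouse left out. With each mouse left out this difference was 0.182 to 0.275 in TSLPR-ST2-, -0.0308 to 0.152 in TSLPR-ST2+ and 0.251 to 0.341 in TSLPR+ST2-. The difference of the log2 ratio was then 0.24 to 0.34, -0.04 to 0.21, 0.37 to 0.44 and, in TSLPR+ST2+, 0.9 to 1.14. The cause of these shifts was not tested. Depth limits Cox4i2, Cox6a2, Cox6b2 and Cox7a1, with 145, 164, 168 and 559 counts over the 32 libraries.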
